A study of Mus musculus with 4 samples.

Results

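The genes described here are the cullins, the F-box genes whose symbols start with Fbxo or Fbxl, and the Anapc subunits of the anaphase-promoting complex. Members were all protein-coding genes of the GRCm38 gene table with such a symbol, except Fbxo32. They numbered 71 of 21887 protein-coding genes on chromosomes 1 to 19, X and Y: 8 cullins, 10 Anapc genes, 18 Fbxl genes and 35 Fbxo genes. A gene was called bound where a peak had at least 1 base within 1 kb of either end of its annotated span. Occupancy of the transcription factor Deaf1 was mapped by chromatin immunoprecipitation and sequencing (ChIP-seq) in C2C12, an established line of mouse myoblasts grown in 10% serum. The series had 2 ChIP libraries made with a single Deaf1 antibody and 2 input libraries without antibody, all in unperturbed cells. The labels give 1% formaldehyde for 10 min, beside the term native, and do not say whether the replicates were separate cultures. No values of the inputs and no cells without Deaf1 were analysed here, there was no second condition, and peaks carry no expression values with which the cell label could be tested.

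Cullins are elongated scaffold proteins. At one end they hold a RING protein that brings in an ubiquitin-loaded enzyme, and at the other an adaptor with a substrate receptor. F-box proteins are the receptors of the Cul1 ligases (SCF complexes), where Fbxl proteins carry leucine-rich repeats and Fbxo proteins other domains. The anaphase-promoting complex is a related ligase, built on the cullin-like Anapc2 and the RING subunit Anapc11, that marks cyclins and securin for destruction in mitosis. In muscle, F-box ligases are best known from atrophy, where Fbxo32 (atrogin-1), the gene left out here, is a standard marker.

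The results turn on short stretches at gene starts, and the promoter windows under the peaks are therefore shown first. Each window is the RefSeq sequence on GRCm38 from 250 bases before to 50 bases after an annotated start, 5′ to 3′ on the strand of the gene. It was printed for the 5 members bound at a gene end whose own window overlapped a region of the combined list, and, chosen after seeing the values, for Wdr53 (whose window covers the region at Fbxo45) and for Fbxl18. Capitals mark TTCG or its reverse complement CGAA, the core known for DEAF1 binding, and GGAAGT or its reverse complement ACTTCC, a form of the GGAA core that ETS-family factors bind. GGAAGT was picked after these windows had been read. The windows are chr9:20644718-20645017, minus strand (Fbxl12), chr11:120598171-120598470, plus strand (Anapc11), chr9:55208685-55208984, plus strand (Fbxo22), chr1:182341557-182341856, minus strand (Fbxo28), chr10:60003086-60003385, minus strand (Anapc16), chr16:32246977-32247276, plus strand (Wdr53), and chr5:142895189-142895488, minus strand (Fbxl18).
Fbxl12: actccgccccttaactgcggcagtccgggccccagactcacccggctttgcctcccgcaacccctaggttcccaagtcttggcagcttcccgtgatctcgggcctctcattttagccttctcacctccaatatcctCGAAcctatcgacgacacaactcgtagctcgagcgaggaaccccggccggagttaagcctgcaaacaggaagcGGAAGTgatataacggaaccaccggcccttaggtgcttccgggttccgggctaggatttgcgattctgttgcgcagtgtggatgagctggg
Anapc11: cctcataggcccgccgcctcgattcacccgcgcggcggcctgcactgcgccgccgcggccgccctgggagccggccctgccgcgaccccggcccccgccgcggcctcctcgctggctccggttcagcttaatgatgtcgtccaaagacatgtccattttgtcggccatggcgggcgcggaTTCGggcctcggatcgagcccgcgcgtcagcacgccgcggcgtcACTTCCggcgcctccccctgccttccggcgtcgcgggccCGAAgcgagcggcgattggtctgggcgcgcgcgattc
Fbxo22: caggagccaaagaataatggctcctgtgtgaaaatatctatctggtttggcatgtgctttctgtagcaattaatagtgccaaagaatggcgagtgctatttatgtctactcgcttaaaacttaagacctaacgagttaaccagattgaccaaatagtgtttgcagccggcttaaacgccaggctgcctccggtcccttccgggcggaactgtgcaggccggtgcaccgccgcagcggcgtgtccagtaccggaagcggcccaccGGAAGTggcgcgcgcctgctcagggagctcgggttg
Fbxo28: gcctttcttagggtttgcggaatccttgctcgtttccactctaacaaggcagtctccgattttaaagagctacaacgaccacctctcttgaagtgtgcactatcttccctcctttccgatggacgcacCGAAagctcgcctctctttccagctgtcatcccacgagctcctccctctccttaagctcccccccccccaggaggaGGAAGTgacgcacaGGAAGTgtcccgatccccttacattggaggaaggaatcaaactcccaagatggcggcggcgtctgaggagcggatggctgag
Anapc16: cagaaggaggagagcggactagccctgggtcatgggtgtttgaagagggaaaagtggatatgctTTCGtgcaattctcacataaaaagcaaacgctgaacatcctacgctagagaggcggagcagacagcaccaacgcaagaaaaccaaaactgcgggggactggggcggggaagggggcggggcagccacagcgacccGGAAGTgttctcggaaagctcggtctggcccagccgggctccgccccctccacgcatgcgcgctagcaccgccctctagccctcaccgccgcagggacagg
Wdr53 (at Fbxo45): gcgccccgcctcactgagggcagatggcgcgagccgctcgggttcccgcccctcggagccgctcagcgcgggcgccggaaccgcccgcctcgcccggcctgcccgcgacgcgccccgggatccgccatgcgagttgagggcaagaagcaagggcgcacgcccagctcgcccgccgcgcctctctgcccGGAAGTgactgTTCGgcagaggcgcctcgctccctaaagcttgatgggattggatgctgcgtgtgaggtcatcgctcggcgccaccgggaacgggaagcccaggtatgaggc
Fbxl18: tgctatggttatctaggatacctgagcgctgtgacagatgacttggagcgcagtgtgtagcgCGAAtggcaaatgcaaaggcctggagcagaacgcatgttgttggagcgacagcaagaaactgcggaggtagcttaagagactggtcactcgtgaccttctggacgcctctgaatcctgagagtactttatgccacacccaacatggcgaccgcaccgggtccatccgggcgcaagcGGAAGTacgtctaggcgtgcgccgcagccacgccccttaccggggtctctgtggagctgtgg
The 7 windows each held GGAAGT or ACTTCC, the motif picked from them, and 6 held TTCG or CGAA, the exception being Fbxo22. An internal Anapc15 window under a region of the combined list, which was not printed, held both as well. Of all 17492 protein-coding genes with a window, 25.1% held GGAAGT or ACTTCC in the window at the outermost start, and of the other genes bound in the combined list 57.4%. The distance from the replicate 2 summit to the middle of the nearest GGAAGT or ACTTCC was 1 base at Fbxl12, 4 at Anapc11, 5 at Fbxo28, 12 at Fbxl18, 19 at Fbxo22, 27 at Anapc16 and 38 at Wdr53. The nearest TTCG or CGAA was farther away at Fbxl12 (75 bases), Anapc11 (33), Fbxo28 (96), Anapc16 (163) and Fbxl18 (164), and nearer at Wdr53 (28).

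Deaf1 peaks sat at 9 of the 71 genes in the authors' combined list of both replicates (12.7%). Of all other protein-coding genes, 6.97% were bound by the same rule. The 9 were Cul4a, Anapc11, Anapc16, Fbxl6, Fbxl12, Fbxo22, Fbxo28, Fbxo38 and Fbxo45. In the peak list of replicate 1, 10 members were bound (14.1%, against 7.50% of other genes), and in that of replicate 2, 12 members (16.9%, against 11.2%). Both libraries had a peak at 9 members, which is 90.0% of those bound in replicate 1 and 75.0% of those bound in replicate 2. For other genes these shares were 93.8% and 62.7%. Peaks of either library were at 13 members (18.3%, against 11.7% of other genes), and the remaining 58 members had no peak at an end in any list. With 1 group of libraries there is no test over samples of these shares, and they are given as a description.

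Regions near several genes decide much of this count. When each region was given only to the gene whose end was nearest to its replicate 2 summit, 4 members remained (Anapc16, Fbxl12, Fbxo22 and Fbxo28), or 5.63% of the 71, beside 5.54% of other genes. The share of the members was thus near that of other genes by that rule. An end of another protein-coding gene lay within 1 kb of the region at 6 of the 9 bound members (66.7%), and at 665 of 1520 other bound genes (43.8%). The member's own end was the nearest at 4 of 9 (44.4%), and among other bound genes at 79.5%. At an irreproducible discovery rate (IDR, an estimate of how often a region of that rank fails to repeat) of at most 0.05, a score of at least 540 in the combined list, 5 members stayed bound (7.04%, against 3.12% of other genes). These were Cul4a, Fbxl6, Fbxl12, Fbxo38 and Fbxo45. Among them, Fbxl12 alone also stayed bound by the nearest-end rule.

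**Figure D1:**
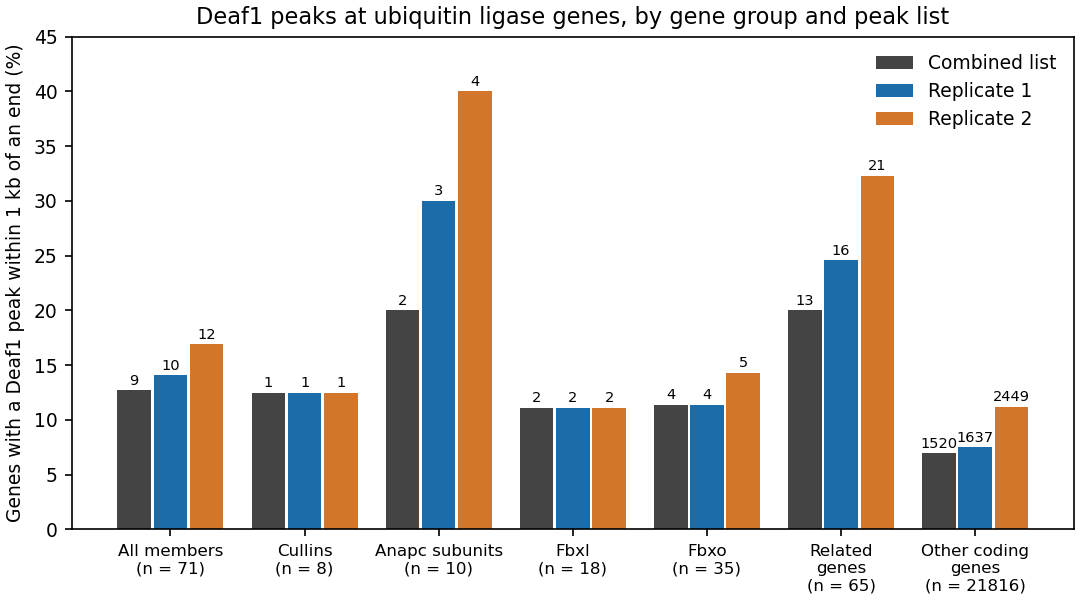
Bars give the percentage of genes with a Deaf1 peak within 1 kb of an end (y axis) in each gene group (x axis, with the number of genes) for the combined list, replicate 1 and replicate 2. Numbers above bars are bound genes. Anapc genes ran from 2 of 10 in the combined list to 4 of 10 in replicate 2, and the other coding genes from 6.97% to 11.2%.

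By family, the plot of shares by gene group shows 1 of 8 cullins, 2 of 10 Anapc genes, 2 of 18 Fbxl genes and 4 of 35 Fbxo genes bound in the combined list. The cullin and Fbxl counts were the same in each replicate's own list, and the Fbxo count was 4 in replicate 1 and 5 in replicate 2. The Anapc genes varied most between lists, with 3 in replicate 1 and 4 in replicate 2. With groups this small, 1 gene moves a share by 10 percentage points or more in the cullins and Anapc genes.

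Cul4a, the scaffold of the ligases that use the adaptor Ddb1, was the only bound cullin. Its region (chromosome 8 from 13104788 to 13104963) had a fold enrichment over background, as the authors' peak caller gave it, of 9.99 in replicate 1 and 11.3 in replicate 2 (mean 10.7 ± 0.946, SD, n = 2). The pileup, the number of fragments over the summit, was 27 in replicate 1 and 34 in replicate 2, with 95% Poisson limits (exact) of 17.8 to 39.3 and of 23.5 to 47.5, and the IDR was 0.0175. The summit lay 747 bp upstream of the Cul4a start, inside the span of Pcid2 and 467 bp from the end where that minus-strand gene starts. The region was therefore nearer to Pcid2 than to Cul4a, and a window of 500 bp no longer counted it for Cul4a. Cul1, the SCF scaffold, and Cul2, Cul3, Cul4b, Cul5, Cul7 and Cul9 had no peak within 1 kb of an end or inside their spans.

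Among the Anapc genes, the region at Anapc11, the RING subunit, differed most between replicates. The fold enrichment was 4.93 in replicate 1 and 9.45 in replicate 2 (mean 7.19 ± 3.19, SD, n = 2), with 13 fragments (6.92 to 22.2) and 33 fragments (22.7 to 46.3). These counting intervals did not overlap, but the counts are not scaled for depth. At other gene-end regions the median ratio of replicate 2 to replicate 1 was 1.31. The summits were 197 bp apart, so the counts also belong to different positions. The replicate 2 summit lay 19 bp from the outer start of Anapc11 and 3 bp from an end of Alyref, an mRNA export adaptor that starts on the other strand. The replicate 1 summit lay 67 bp from a second annotated start of Anapc11. The IDR of the region (chromosome 11 from 120598347 to 120598642) was 0.335.

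Anapc16, a small subunit of the complex, had the weakest region of the 9 by mean fold. Its fold enrichment was 5.30 and 5.42 in replicates 1 and 2 (mean 5.36 ± 0.0837, SD, n = 2), with 17 fragments (9.90 to 27.2) and 20 fragments (12.2 to 30.9). The region (chromosome 10 from 60003104 to 60003229) covered the Anapc16 start, 21 bp from the replicate 2 summit, and had an IDR of 0.511, the highest value in the combined list. Ascc1, which runs in the opposite direction, had a span end 564 bp away, and a promoter window of one of its annotated starts also overlapped the region.

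A further 3 Anapc genes had a peak in a single library. Anapc2, the cullin-like subunit, had 27 fragments and a fold enrichment of 5.75 in replicate 2, with the summit 30 bp from its start and 18 bp from an end of Ssna1. Anapc13 had 19 fragments and a fold enrichment of 6.48 in replicate 2, with the summit 271 bp from its start but 3 bp from an end of Cep63, a centrosome gene. Anapc10, a substrate-binding subunit, had 17 fragments and a fold enrichment of 6.42 in replicate 1, with the summit 1 bp from an annotated start and 22 bp from an end of Abce1, a ribosome recycling factor. All 3 summits lay within 22 bp of an end of another gene. Their summits had no more than 27 fragments, and what the other library held there was not analysed here.

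Anapc15, known for the turnover of the mitotic checkpoint complex, had a region that the rule on gene ends does not see. The region (chromosome 7 from 101896273 to 101896739) was more than 5 kb inside the annotated span and overlapped an internal annotated start. Its strongest peak had a fold enrichment of 7.50 and 20 fragments in replicate 1 and of 4.70 and 31 fragments in replicate 2, with an IDR of 0.511. Counting the whole span plus 1 kb, which adds Anapc15, 3 of 10 Anapc genes carried a region of the combined list, beside 7.66% of other genes. At a score of at least 540 and within 1 kb of an end, 0 of 10 did. Anapc1, Anapc4, Anapc5 and Anapc7 had no peak at an end or inside their spans in any list.

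Of the Fbxl genes, Fbxl12, a receptor with leucine-rich repeats, had the largest fold enrichment of the bound members in replicate 1, 13.9, and 7.88 in replicate 2 (mean 10.9 ± 4.27, SD, n = 2). The pileup ran the other way, with 38 fragments (26.9 to 52.2) against 45 in replicate 2 (32.8 to 60.2). The background expected at the summit was 1.80 fragments in replicate 1 and 4.84 in replicate 2. The fold thus differed while the fragment counts lay within each other's counting intervals. The region (chromosome 9 from 20644702 to 20644953, IDR 0.0296) covered the Fbxl12 start. It also overlapped the promoter window of Ubl5, whose annotated span reaches past both sides of this region, so that Ubl5 did not count as a neighbouring end.

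Fbxl6 had fold enrichments of 8.53 and 8.22 (mean 8.37 ± 0.220, SD, n = 2) with 30 fragments (20.2 to 42.8) and 39 fragments (27.7 to 53.3). The region (chromosome 15 from 76538708 to 76538932, IDR 0.0234) lay between Fbxl6 and the riboflavin transporter gene Slc52a2. Its replicate 2 summit was 58 bp from the Fbxl6 end and 10 bp from the Slc52a2 end.

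Fbxl18 resembled Anapc15 in its position. A region (chromosome 5 from 142895195 to 142895309, IDR 0.0160) lay 22 bp by its replicate 2 summit from the annotated start in its promoter window, but 1461 bp from the end of the widest span. Its fold enrichment was 11.4 in replicate 1 and 11.7 in replicate 2 (mean 11.5 ± 0.166, SD, n = 2), with 31 and 35 fragments. This is higher in both libraries than the fold at 7 of the 9 members bound by the rule, all except Fbxo38 and Fbxl12. Counting gene ends and annotated starts together gave 11 bound members (15.5%), beside 7.47% of other genes, and counting the whole span plus 1 kb also gave 11, beside 7.66%. Annotated starts alone gave 8 of 57 members with a promoter window, beside 7.28% of other genes with one.

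The Fbxo genes held the largest mean fold, at Fbxo38, a receptor reported for PD-1 in T cells. Its fold enrichment was 9.63 in replicate 1 and 13.9 in replicate 2 (mean 11.8 ± 3.04, SD, n = 2), with 34 fragments (23.5 to 47.5) and 42 fragments (30.3 to 56.8). The region (chromosome 18 from 62548658 to 62548974) had the lowest IDR of the 9, 0.0124. Its replicate 2 summit was 29 bp from the end of Fbxo38 and 19 bp from an end of Spink10, a gene of the serine peptidase inhibitor family.

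Fbxo45, which works with the ligase MYCBP2 in neurons instead of an SCF complex, had fold enrichments of 8.20 and 8.63 (mean 8.41 ± 0.304, SD, n = 2). Its summits had 36 fragments (25.2 to 49.8) and 41 fragments (29.4 to 55.6), and the region (chromosome 16 from 32247041 to 32247309) had an IDR of 0.0199. The replicate 2 summit was 181 bp from the Fbxo45 end and 21 bp from the end of Wdr53. Values at Fbxo45 and Fbxl6 were alike in both libraries, and each sat between a pair of genes.

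The other Fbxo regions were weaker. Fbxo22, whose reported substrates include the demethylase KDM4A, had fold enrichments of 5.71 and 7.74 (mean 6.73 ± 1.44, SD, n = 2) with 15 fragments (8.40 to 24.7) and 24 fragments (15.4 to 35.7). Its region (chromosome 9 from 55208864 to 55208985) was centred 3 bp from the start of Fbxo22 by the replicate 2 summit, with an IDR of 0.511. Fbxo28, reported to modify MYC, had fold enrichments of 7.01 and 5.90 (mean 6.45 ± 0.785, SD, n = 2) with 19 fragments (11.4 to 29.7) and 22 fragments (13.8 to 33.3). Its region (chromosome 1 from 182341592 to 182341706, IDR 0.278) covered the start of Fbxo28. Neither had another coding gene's end within 1 kb. Fbxo36 had a peak in replicate 2 only, with 25 fragments and a fold enrichment of 8.42, and its nearest base was 992 bp from the start.

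**Figure D2:**
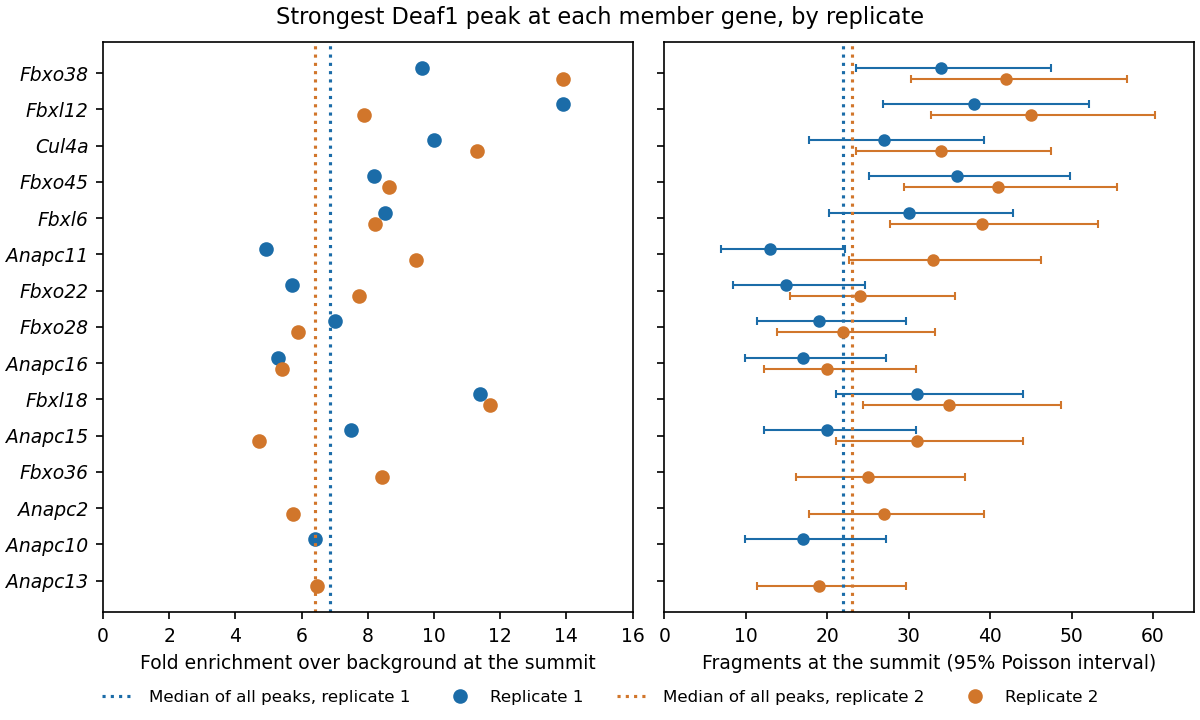
Each row is a member gene, with the fold enrichment of its strongest peak (left, x axis) and the fragments at that summit with 95% Poisson intervals (right, x axis) in replicate 1 and replicate 2. Dotted lines are medians over all peaks of each list, 6.87 and 6.41 for fold and 22 and 23 for fragments. Fbxo38, Fbxl12, Cul4a, Fbxo45, Fbxl6 and Fbxl18 lie right of the lines in both replicates.

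The plot of fold and fragments by gene shows the member regions, whose medians lay near those of other gene-end regions. The median fold enrichment of the 9 was 8.20 in replicate 1 and 8.22 in replicate 2, beside 7.50 and 8.42 for the 1240 other gene-end regions. Their medians of fragments were 27 and 34, beside 24 and 32. All 9 had more fragments in replicate 2, as did 91.2% of the other regions, and the median ratio of replicate 2 to replicate 1 was 1.24, beside 1.31. The lowest background, which scales with the depth of a library, was 1.80 fragments in replicate 1 and 2.09 in replicate 2. No member reached the strongest regions of the series: the largest mean fold was 11.8 among the 9, and 46.4 among the other gene-end regions.

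**Figure D3:**
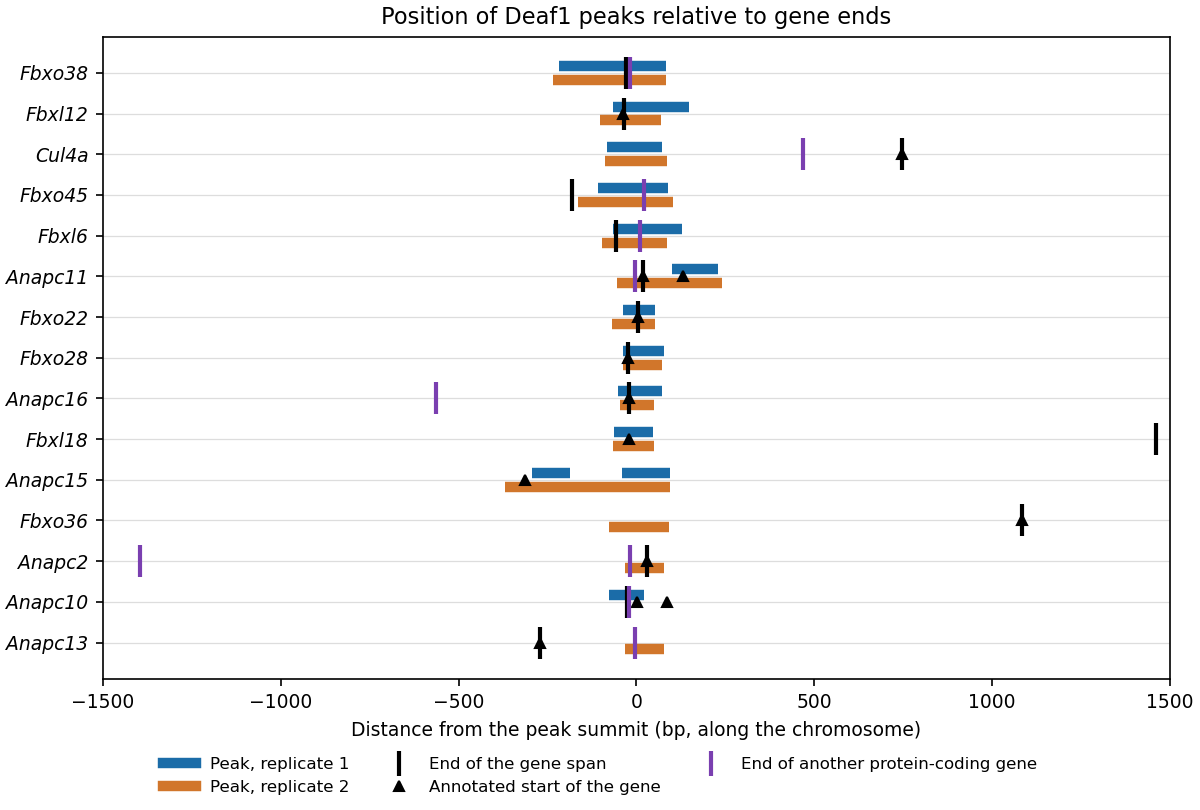
Distances in bp along the chromosome (x axis) from the replicate 2 summit (replicate 1 for Anapc10) for 15 member genes (rows), with the peaks of each replicate, the ends of the gene's own span, its annotated starts and ends of other coding genes. Fbxo22, Fbxo28 and Fbxl12 have the peak on their own start, Fbxl18 lies 1461 bp from its span end, and the end of another gene falls under the peak at Fbxo38, Fbxo45, Fbxl6, Anapc11, Anapc2, Anapc10 and Anapc13.

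The map of distances from the summit shows where these peaks fall. The promoter table gives a strand for 6 of the 9 bound members, and in all 6 the region was at the start side of the span only. Of 1233 other bound genes with a strand, 94.2% were bound at the start side only. Just inside the limit of 1 kb was Fbxo36, at 992 bp, and just outside it was Fbxl18, at 1412 bp in replicate 2 and 1415 bp in replicate 1. Farther out, a replicate 1 peak of 12 fragments (fold enrichment 4.64) lay 3909 bp from an end of Anapc15. In replicate 2 the next members were Fbxl16 (2261 bp), Fbxo43 (3862 bp) and Cul7 (4048 bp), with fold enrichments of 14.9, 16.1 and 8.81. Those 3 peaks lay at ends of other genes, namely Wdr24, Polr2k, and Klc4 with Mrpl2. The folds near Fbxl16 and Fbxo43 were above those of all 12 members with a replicate 2 peak within 1 kb of an end.

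**Figure D4:**
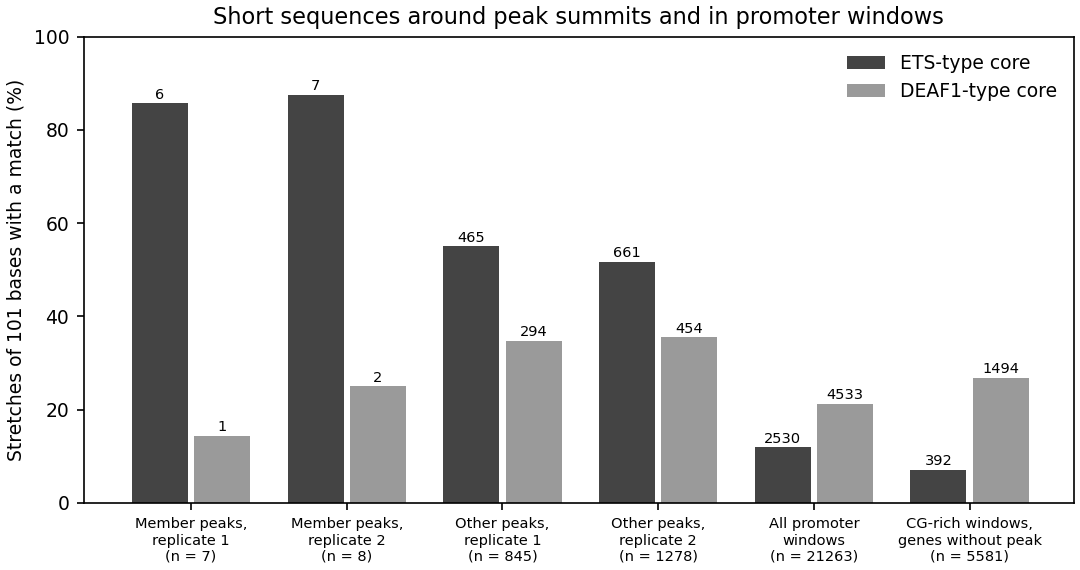
Bars give the percentage of stretches of 101 bases (y axis) that hold the ETS-type core GGAAGT (dark) or the DEAF1-type core TTCG (light), each on either strand, around summits of member peaks, around summits of other peaks, and in promoter windows (x axis, with the number of stretches). Numbers above bars are stretches with a match. The first core was in 6 of 7 and 7 of 8 member stretches, and the second in 1 of 7 and 2 of 8. GGAAGT was picked from windows of the same members that hold it here.

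Sequence around the summits was compared on stretches of 50 bases to each side that a promoter window of any protein-coding gene covered whole. Such stretches existed for 9 members: Anapc2, Anapc10, Anapc11, Anapc16, Fbxl12, Fbxl18, Fbxo22, Fbxo28 and Fbxo45. GGAAGT or ACTTCC occurred at 7 of the 9, which are the members of the 7 printed windows from which this motif was picked. Anapc2 and Anapc10, the members outside that set, held none, and both had a peak in a single library. The member shares therefore cannot serve as a test beside those of other peaks. By replicate a match was in 6 of 7 stretches in replicate 1 and 7 of 8 in replicate 2. Among other peaks it was 55.0% of 845 and 51.7% of 1278. In stretches of the same length centred 21 bases before the start it was 11.9% of all 21263 promoter windows, and 7.02% of the 5581 windows that had at least 21 CG dinucleotides and belonged to genes without a peak. In stretches of 25 bases to each side, a length added after seeing the data, 5 of 7 and 5 of 8 member summits held it, beside 40.8% and 37.5% of other peaks and 6.44% of all promoter stretches. At both lengths other peaks thus held a match at a higher share than promoter stretches did. With 9 members, this is a description of the letters under these peaks and not of a factor bound there.

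TTCG or CGAA was found at 2 of the same 9 members, Anapc11 and Fbxo45. Among other peaks the share was 34.8% in replicate 1 and 35.5% in replicate 2, and in the promoter stretches 21.3% of all and 26.8% of the CG-rich ones without a peak. Over whole windows of 300 bases at the outermost start, 5 of 6 bound and 35 of 51 unbound members held TTCG or CGAA, beside 70.0% of other genes bound in the combined list and 49.0% of all genes with a window. The median number of CG dinucleotides was 21.5 in bound and 21 in unbound members, 23.0 in other bound genes and 13.0 in all genes. The medians of bound and unbound members thus lay near each other and near that of other bound genes. Bound members without a window of their own were Fbxl6, Fbxo45 and Fbxo38.

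Several members known from muscle or from mitosis had no peak in any list, and are named here after their values were seen. Fbxo40, a muscle F-box protein that targets the insulin receptor substrate Irs1, had none at either end or inside its span. The same held for Fbxo30, Fbxo21 and Fbxo31, F-box genes studied in muscle wasting, and for Fbxo5 (Emi1), the inhibitor of the anaphase-promoting complex. A missing peak says that no enrichment passed the peak caller's threshold at this depth.

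Partners and regulators of the same ligases were also bound. Of 65 such genes that the symbol rule leaves out, 13 had a region of the combined list. The share given above for genes outside the members was 6.97%. Of the 65, 16 had a peak of replicate 1 (24.6%, beside 7.50% of genes outside the members). A peak of replicate 2 was at 21 (32.3%, beside 11.2%). No symbol rule defined the 65, and they were chosen with earlier results of these data known. Their shares beside those of other genes are therefore a description and cannot serve as a test. All 13 kept at least 1 region when each region was given only to the gene with the nearest end. Whether they differ from the members was not tested. At a score of at least 540, 5 of the 13 stayed bound (Cdc16, Cdc20, Cops8, Fbxw2 and Fbxw8). That is 7.69% of the 65, beside 3.12% of genes outside the members. The subgroup counts below follow the rule behind the 6.97%, and the subgroups are small.

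Among the SCF partners 4 of 15 were bound, all of them F-box genes with WD40 repeats. Fbxw8, a partner of Cul7, had fold enrichments of 12.8 and 14.2 in replicates 1 and 2, and Fbxw2 of 8.53 and 12.6. Fbxw7, the receptor for cyclin E and MYC, had 9.98 and 5.48, and Fbxw11 (beta-TrCP2) 8.57 and 4.97. The core subunit Skp1 had no peak, and the RING subunit Rbx1 had a peak of 20 fragments in replicate 2 only.

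Of the cullin regulators 4 of 23 were bound. Ube2m, the enzyme that conjugates Nedd8 to cullins, had 3 regions, with IDRs of 0.323, 0.511 and 0.353 along the chromosome. The replicate 2 summit of the first lay 84 bp from an end of Chmp2a and 427 bp from an end of Ube2m. The last had the largest fold enrichments, 36.4 and 36.9, which were 7th and 14th by fold in the lists of 1860 and 3126 peaks. The subunits of the COP9 signalosome, which removes Nedd8, gave 13.9 and 15.2 at Cops8, 6.60 and 8.20 at Gps1 and 3.19 and 3.55 at Cops2. Nedd8 itself had a peak in each list (15 and 24 fragments) but none in the combined list. Those summits lay 491 and 317 bp from an end of Nedd8, and 136 and 38 bp from an end of Gmpr2. Among the other cullin adaptors, 2 of 16 were bound: Dcaf7 (8.96 and 5.88) and Eloc, elongin C (7.64 and 6.33).

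Of 11 other genes listed for the anaphase-promoting complex, 3 were bound. Besides subunits, that list held coactivators, ubiquitin-conjugating enzymes and mitotic checkpoint genes (Mad2l1, Bub1b and Bub3). Cdc27, a subunit that binds coactivators, had the largest fold enrichments, 32.5 and 24.7, with 117 and 143 fragments. Cdc16, another subunit of that arm, had 10.7 and 10.4, and the coactivator Cdc20 8.21 and 12.6. By fold, Cdc27 and Ube2m were above every member in both libraries. The Cdc27 region was 6621 bp wide with an IDR of 0.511, and the Ube2m region was 3394 bp wide with an IDR of 0.353. Both IDRs exceed the limit of 0.05 used above.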

How the data were processed

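Peak lists of 2 ChIP libraries and 1 combined list were analysed. The submitters' processing notes name BWA 0.7.17-r1198, MACS2 2.1.2, FastQC 0.11.8 and mm10 (GRCm38), without settings. Deposited fold enrichments are the authors' ratio of ChIP to background at the summit. Deposited p and q are −log10 values from the authors' peak caller. The deposited score of the combined list is a scaled IDR. Its 6 unnamed columns of single samples were not used. Fragments and background at each summit were recovered from fold = (pileup + 1)/(background + 1) and the Poisson p. For 100% of peaks exactly 1 whole pileup fitted, within 5.1e-05 of −log10 p. On simulated summits like replicate 2, 3116 of 3116 were returned. Those were simulated with the same formula, so they check its inversion and not whether it describes the peak caller. Poisson intervals (95%) cover counting error only. A region takes its strongest peak in each replicate. Gene spans and promoter windows come from RefSeq on GRCm38.p6, and 57 of 71 members matched a window. Scripts ran in Python 3.11.15 with scipy 1.17.1. Members, gene lists and alternatives were chosen with earlier results of these data known. Named were all members with a region or with a peak in 1 list, all cullins and Anapc genes, and related genes with a region. Alternatives covered list, score, q, distance, gene part and motif. No set test was run.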

Additional observations from a re-analysis of the deposited data

How the results depend on the processing

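The share of bound members was near that of other genes where only the nearest gene end counted (5.63%, beside 5.54%). It was above that of other genes under the other alternatives to the combined list within 1 kb. These alternatives re-use the same peak lists and are not independent of each other. The count of 9 members was 5 with scores of 540 or more and 4 where only the nearest gene end counted. With replicate 1 or 2 left out it was 12 and 10. The list of related genes was chosen with earlier results of these data known, and its shares are a description only. The related genes numbered 5 with scores of 540 or more (7.69%, beside 3.12% of genes outside the members). With 1 replicate left out they numbered 16 (24.6%) to 21 (32.3%), beside 7.50% and 11.2% of genes outside the members. With peaks of either replicate they numbered 23 (35.4%, beside 11.7%). The last was chosen after seeing the data, like the one that added annotated starts. The median fold enrichment at member regions was 8.20 to 8.22 with 1 replicate left out. The longer TTCGG or CCGAA was in 2 bound windows in place of 5. The other alternatives of these results stayed within 1.5 times. No paired analysis was possible because both ChIP libraries belong to 1 group, and no values of the inputs were analysed here. With medians of 22 and 23 fragments, single peaks are known only within wide counting error.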

Other observations

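The gene table lists an older symbol of the Fbxo, Fbxl, Cul or Anapc form for 9 further genes. Of these, 2 had a region of the combined list, beside 6.97% of genes outside the members by the same rule. At Fbh1, a DNA helicase once named Fbxo18, fold enrichments were 8.80 in replicate 1 and 10.4 in replicate 2, with 31 fragments in each. The replicate 2 summit was 863 bp from an end of Fbh1 and 695 bp from an end of Ankrd16. The other was Fbxw7, already counted above among the SCF partners. The histone demethylase genes Kdm2a and Kdm2b, once Fbxl11 and Fbxl10, and Ccnf, once Fbxo1, had no peak at an end in any list, and Chuk had one in replicate 2 only.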
